A study of Homo sapiens with 18 samples.

Results

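The 7 APOBEC3 genes encode the human APOBEC3 cytidine deaminases, and their transcripts were followed in THP-1, an established human monocytic line from acute myeloid leukaemia with the MLL-AF9 fusion. The members were the rows named APOBEC3A, APOBEC3B, APOBEC3C, APOBEC3D, APOBEC3F, APOBEC3G and APOBEC3H, 7 of the 19784 gene rows in each table. Poly(A) RNA was sequenced from 18 libraries in 6 groups, all of them THP-1 grown in DMEM with serum. The first experiment held the parental line (wt), a line with PHF8, a histone demethylase, and a line with the F279S form of PHF8, with 4 libraries each. The second held ERAA and ERDD, whose genotypes are PHF8AA and PHF8DD and which carry a label for 4-OHT (4-hydroxytamoxifen, used at 100 nM), and ERPHF8, whose genotype is PHF8 and which carries no treatment label, with 2 libraries each on day 3. Every comparison with ERPHF8 is therefore also one with and without that label, and whether a line is 1 clone is not stated in the labels. By its title the series is about how epigenetic control of interferon responses bears on self-renewal of such leukaemia.

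APOBEC3 proteins turn cytosine into uracil in single-stranded DNA. They are best known as restriction factors, which mutate the DNA copies of retroviruses and retrotransposons, and several are induced by interferon in myeloid cells. APOBEC3A and APOBEC3B are linked to mutation of tumour genomes, whereas APOBEC3D, APOBEC3F, APOBEC3G and APOBEC3H are known for entering HIV particles, and APOBEC3C has weaker activity against that virus. Uracil in DNA is removed by the glycosylase UNG and the base excision repair enzymes that follow it.

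The proteins share a zinc-coordinating deaminase motif, a histidine and a glutamate followed by a proline and a pair of cysteines. A search of the coding sequences of GENCODE v29 found it once in APOBEC3A, APOBEC3C and APOBEC3H, and 2 times in APOBEC3B, APOBEC3D, APOBEC3F and APOBEC3G. The stretches are shown because they differ in how far they can tell the members apart. Capitals mark the codons of the motif's histidine, glutamate, proline and cysteines.
APOBEC3A, and the second motif of APOBEC3B: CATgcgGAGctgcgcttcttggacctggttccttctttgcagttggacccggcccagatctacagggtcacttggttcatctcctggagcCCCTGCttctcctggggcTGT
First motif of APOBEC3B and of APOBEC3F: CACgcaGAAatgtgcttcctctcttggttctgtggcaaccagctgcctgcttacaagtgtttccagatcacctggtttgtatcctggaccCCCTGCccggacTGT
APOBEC3C: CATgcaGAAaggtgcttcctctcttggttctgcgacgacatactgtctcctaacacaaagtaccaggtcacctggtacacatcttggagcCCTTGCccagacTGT
Second motif of APOBEC3D and of APOBEC3F: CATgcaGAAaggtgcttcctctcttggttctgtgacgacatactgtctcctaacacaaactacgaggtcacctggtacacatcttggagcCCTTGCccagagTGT
Second motif of APOBEC3G: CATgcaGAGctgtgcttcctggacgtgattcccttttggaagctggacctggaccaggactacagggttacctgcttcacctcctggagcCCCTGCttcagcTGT
APOBEC3H: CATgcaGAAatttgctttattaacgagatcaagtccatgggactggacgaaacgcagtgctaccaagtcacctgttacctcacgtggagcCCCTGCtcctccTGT
The stretch of APOBEC3A was identical over its 111 bases to the second stretch of APOBEC3B. The first stretches of APOBEC3B and APOBEC3F were identical over 105 bases, as were the second stretches of APOBEC3D and APOBEC3F. APOBEC3C differed from the last of these at 4 bases, and APOBEC3H differed from the second stretch of APOBEC3G at 40. A read that lies within an identical stretch cannot be assigned to 1 member.

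Over whole transcripts, 35.9% of the 50-base windows of APOBEC3B occurred in another member's transcript. The share was 24.0% in APOBEC3F, 22.6% in APOBEC3A, 19.1% in APOBEC3G, 15.3% in APOBEC3D, 1.16% in APOBEC3C and 0% in APOBEC3H. The longest run shared by APOBEC3A and APOBEC3B was 196 bases, and that shared by APOBEC3F and APOBEC3G was 206. Levels of APOBEC3C and APOBEC3H are therefore the least exposed to reads of other members.

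All members lie on the plus strand of chromosome 22 (hg38), in the order of their letters, and 3 pairs of rows overlap. APOBEC3A was counted from 38952741 to 38992778 and held 99.75% of the APOBEC3B row (38982347 to 38992804). Its span reaches that far because its GENCODE v29 transcript APOBEC3A-205 runs from 38957522 to 38992778. APOBEC3D was counted from 39014363 to 39033276 and held 95.5% of the APOBEC3C row (39014083 to 39020352). In GENCODE v29 the gene APOBEC3D starts only at 39021113, and the counted span equals that of AL022318.4, a separate gene there. APOBEC3G was counted from 39040961 to 39087743 and held 97.3% of the APOBEC3F row (39040604 to 39053910), while its gene in GENCODE v29 starts at 39077005. APOBEC3H (39097224 to 39104067) overlapped no other row. No label states how reads were counted over introns, strands or overlapping rows. In 124 pairs of rows in which one gene lay on the opposite strand within an intron of the other, the outer row held at least as many reads in 1794 of 1794 library values with 10 or more inner reads, and so it was in 4605 of 4605 over all 294 opposite-strand pairs. By these values a read counts in every row it overlaps, introns included and on either strand, and reads of APOBEC3B-AS1, an antisense gene at the end of APOBEC3B, could not be told apart from those of APOBEC3B.

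**Figure D1:**
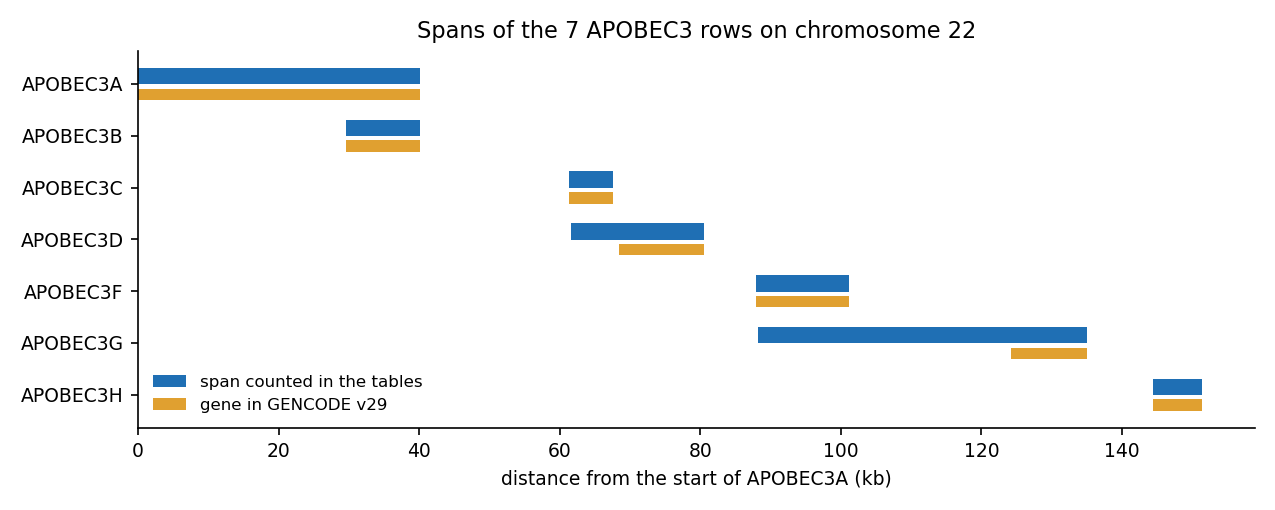
Spans of the 7 APOBEC3 rows (blue) and of the same genes in GENCODE v29 (orange), by distance in kb from the start of APOBEC3A. The rows of APOBEC3A, APOBEC3D and APOBEC3G cover nearly all of APOBEC3B, APOBEC3C and APOBEC3F.

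The overlaps decided what each row could show. The APOBEC3A row held 1.00 to 1.04 times the reads of the APOBEC3B row across the 18 libraries, and their difference is close to the reads outside APOBEC3B, since only 26 bases of APOBEC3B lie outside APOBEC3A. That difference is called APOBEC3A outside APOBEC3B here. The APOBEC3D row held 0.962 to 0.995 times the reads of the APOBEC3C row, always fewer, so reads of APOBEC3D itself could not be separated and its row largely repeats that of APOBEC3C. The APOBEC3G row held 3.59 to 7.56 times the reads of the APOBEC3F row. Their difference, APOBEC3G outside APOBEC3F, is a lower bound of the reads outside APOBEC3F, of which 357 bases lie outside the APOBEC3G row. Counts of members below are given for all 7 rows, of which 5 (APOBEC3B, APOBEC3C, APOBEC3F, APOBEC3G and APOBEC3H) are largely distinct.

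The libraries held 18.2 to 51.5 M reads, so that a gene with 0 reads could still be at 0.0582 to 0.164 CPM (a gene's reads scaled by the total of its library), by counting error only. PHF8 RNA followed the labels, at 45.5 to 54.0 CPM in wt and 1098 CPM or more in every other library. Of 11 markers of monocytic leukaemia cells, 10 stood at 1 CPM or more in all 18 libraries, and all T cell, NK cell and erythroid markers were below 1 CPM. Libraries 1 and 2 of each group in the first experiment stood apart from libraries 3 and 4: within a group, libraries of the same pair differed by a mean chi-square per gene of 1.95 to 11.8, and libraries of different pairs by 26.6 to 75.8. No label names these pairs, and results of the first experiment are given for both. Nothing in the labels says that the replicates were separate cultures, so p-values measure the spread between these libraries, which may be technical. In these bulk samples fewer cells with a transcript and less of it per cell cannot be told apart.

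APOBEC3C was the most abundant member in every library. It held 51.4 to 70.7% of the reads of the cluster, taken as the sum of the APOBEC3A, APOBEC3C, APOBEC3G and APOBEC3H rows. That sum leaves out reads in the 12924 bases of the APOBEC3D row outside APOBEC3C, and APOBEC3D itself is not ranked here. Per kilobase of exon in wt it stood at 27.7 ± 1.83 CPM per kb (SD, n = 4), followed by APOBEC3G outside APOBEC3F at 10.6 ± 2.87, APOBEC3B at 9.58 ± 1.83, APOBEC3F at 1.65 ± 0.676 and APOBEC3H at 0.716 ± 0.294. Libraries of APOBEC3G outside APOBEC3F and APOBEC3B overlapped on this scale in wt and in F279S, as did those of APOBEC3F and APOBEC3H, and APOBEC3C lay apart from the rest. In the PHF8 line and in the 3 ER lines APOBEC3B came second, and its libraries did not overlap those of APOBEC3G outside APOBEC3F. APOBEC3B stood at 14.4 ± 1.67 against 10.6 ± 0.999 CPM per kb in the PHF8 line and 18.3 ± 0.0798 against 13.2 ± 0.518 in ERDD. In ERAA the nearest libraries of these rows stood at 10.9 and 10.5. This scale divides reads over whole spans, introns included, by the exon length of 1 transcript per gene. That was 1533 bases in APOBEC3B and 1834 in APOBEC3G, so the order need not be one of mRNA levels. APOBEC3A outside APOBEC3B was lowest in all 6 groups, at 0.0339 to 0.774 CPM per kb.

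**Figure D2:**
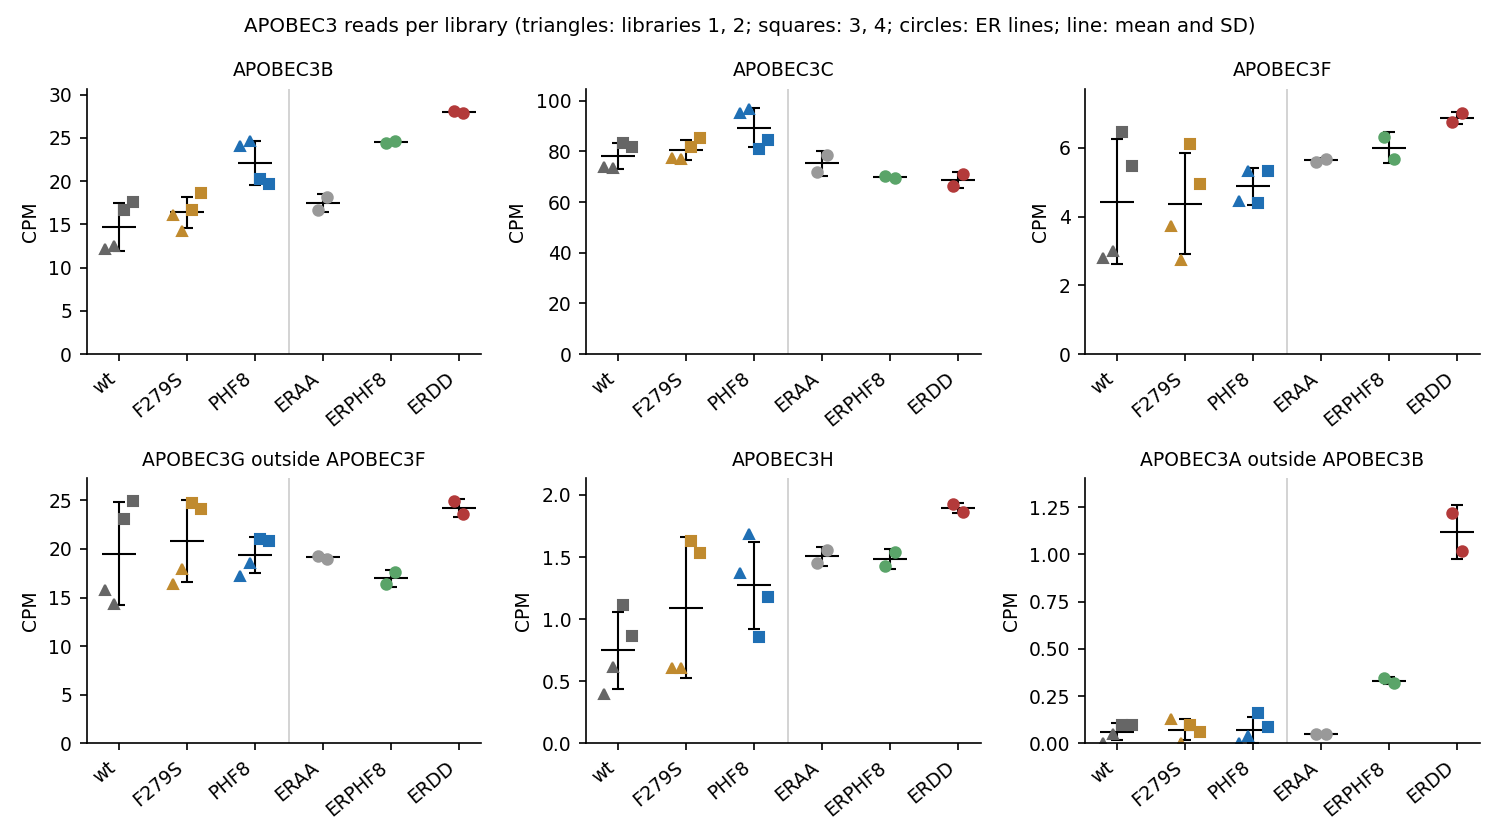
CPM of the distinct APOBEC3 rows and differences of rows in each of the 18 libraries, by group, with the mean and SD. APOBEC3B and APOBEC3A outside APOBEC3B are highest in ERDD, and in wt and F279S the squares (libraries 3 and 4) lie above the triangles (libraries 1 and 2) in APOBEC3F, APOBEC3G outside APOBEC3F and APOBEC3H.

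The comparison of ERDD with ERAA asked how the PHF8DD and PHF8AA forms differ in their effect on the cells' transcripts. Of the 7 rows, 4 were higher in ERDD, those of APOBEC3A, APOBEC3B, APOBEC3F and APOBEC3G, and 0 were lower (limma on log2(CPM + 0.5), Benjamini-Hochberg adjusted p below 0.05 over all 13831 genes tested). In this comparison 68.1% of all genes were called changed, 34.8% higher and 33.3% lower, so 4 of 7 members called is not more than the share of all genes. The median log2 change over the 7 members was 0.26, beside -0.00086 over all genes tested. All 7 members had groups that did not overlap, as did 83.7% of all genes.

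APOBEC3B, the nuclear enzyme linked to mutation in tumours, stood at 16.7 and 18.2 CPM in the ERAA libraries, 24.4 and 24.6 in ERPHF8 and 28.1 and 27.9 in ERDD. The groups did not overlap, ERPHF8 lay between the other two, and the replicates of ERDD and ERPHF8 lay closer together than those of ERAA. The log2 change was 0.67 ± 0.06 (SE) in ERDD against ERAA (limma adjusted p = 3.58e-05), 0.48 ± 0.06 in ERPHF8 against ERAA (adjusted p = 0.000454) and 0.19 ± 0.06 in ERDD against ERPHF8 (adjusted p = 0.0322). Leaving out any 1 of the 4 libraries ended the last of these calls, with log2 changes of 0.18 to 0.20 and adjusted p = 0.120 to 0.147, while the first 2 remained past the threshold without each library in turn. The share of the cluster's reads held by APOBEC3B was 14.6 ± 0.174% in ERAA (SD, n = 2), 20.6 ± 0.15% in ERPHF8 and 21.4 ± 0.432% in ERDD.

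APOBEC3A, the single-domain enzyme that interferon induces in monocytes, had its own reads only where they lay outside APOBEC3B. These numbered 2 and 2 in the ERAA libraries, 14 and 13 in ERPHF8 and 50 and 42 in ERDD. The ERDD libraries were highest and the groups did not overlap. Per CPM this was 22.8 times as high in ERDD as in ERAA (exact 95% interval of counting error only, 8.62 to 85.6), 6.77 times in ERPHF8 against ERAA (2.36 to 26.6) and 3.37 times in ERDD against ERPHF8 (2.17 to 5.39). The reads were summed over the libraries of each group, so these intervals leave out the spread between libraries. They show how few reads the ratios rest on and are no test of a difference between the lines. As a percent of the APOBEC3B reads of the same library, it was 0.268 and 0.295% in ERAA, 1.29 and 1.41% in ERPHF8 and 3.65 and 4.34% in ERDD, so it did not keep a fixed ratio to APOBEC3B. At these low reads its level in ERDD was 1.12 ± 0.142 CPM (SD, n = 2), and it was high enough to enter the fit only through ERDD. For that reason no test of it is given. The tables do not say where in the 29606 bases outside APOBEC3B these reads lie.

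The rows of APOBEC3F and APOBEC3G, both known for restricting HIV, were modestly higher in ERDD. APOBEC3G stood at 24.9 and 24.6 CPM in ERAA, 22.7 and 23.3 in ERPHF8 and 31.7 and 30.6 in ERDD. Both ERDD libraries lay above all others and ERPHF8 lay below ERAA. Its log2 change was 0.32 ± 0.05 in ERDD against ERAA (limma adjusted p = 0.000918), 0.43 ± 0.05 in ERDD against ERPHF8 (adjusted p = 0.000512) and -0.11 ± 0.05 in ERPHF8 against ERAA (adjusted p = 0.126). With the reads of APOBEC3F taken off, APOBEC3G outside APOBEC3F gave 0.33 ± 0.06, 0.50 ± 0.06 and -0.17 ± 0.06. APOBEC3F stood at 5.6 and 5.68 CPM in ERAA, 6.32 and 5.69 in ERPHF8 and 6.75 and 7.0 in ERDD. It was highest in ERDD, and the lower ERPHF8 library lay just above ERAA. Its log2 change in ERDD against ERAA was 0.26 ± 0.09 (limma adjusted p = 0.0264), a call lost without ERAA library 1 (adjusted p = 0.0545), without ERDD library 1 (adjusted p = 0.0795), without ERDD library 2 (adjusted p = 0.132) and with no filter on low values (adjusted p = 0.0506).

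APOBEC3C, the most abundant member, was not among the rows called. It stood at 71.9 and 78.8 CPM in ERAA, 70.3 and 69.5 in ERPHF8 and 66.5 and 71.0 in ERDD. ERAA lay above the other lines, whose libraries overlapped each other. The log2 change in ERDD against ERAA was -0.13 ± 0.06 (limma adjusted p = 0.0731), and without ERAA library 1 it was -0.20 with adjusted p = 0.00288. The APOBEC3D row, which carries the same reads, gave -0.13 ± 0.06. APOBEC3C's share of the cluster was 63.2 ± 1.01% in ERAA (SD, n = 2), 58.6 ± 0.532% in ERPHF8 and 52.5 ± 1.57% in ERDD. APOBEC3H, whose stable forms also restrict HIV, stood at 1.45 and 1.56 CPM in ERAA, 1.43 and 1.54 in ERPHF8 and 1.92 and 1.87 in ERDD. ERDD was highest without overlap, and its log2 change of 0.26 ± 0.12 did not pass the test (limma adjusted p = 0.0845, from 123 reads in ERAA).

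ERPHF8 against ERAA called 2 of 7 rows, those of APOBEC3A and APOBEC3B, both higher, where 53.8% of all genes were called changed, 29.7% higher and 24.1% lower. The groups of 6 members did not overlap, as was so for 76.3% of all genes. Without ERAA library 1, 4 rows were called, with APOBEC3C and APOBEC3D lower (-0.17 and -0.17). ERDD against ERPHF8 called 3 of 7 rows, those of APOBEC3A, APOBEC3B and APOBEC3G, all higher, where 52.8% of all genes were called changed, 24.8% higher and 28% lower. The groups of 5 members did not overlap, beside 84% of all genes. Leaving out any 1 library of ERDD or ERPHF8 left 1 row called. The 3 comparisons share their libraries in pairs, so their values are not independent. The summed level of the 11 monocytic markers was 3041 to 3247 CPM in ERAA, 2430 to 2431 in ERPHF8 and 2633 to 2689 in ERDD, and its part in the results was not tested. PHF8 RNA also differed between these lines (2150 ± 219 CPM in ERAA, 1906 ± 8.51 in ERPHF8 and 1109 ± 14.8 in ERDD), and form and level of PHF8 cannot be told apart.

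**Figure D3:**
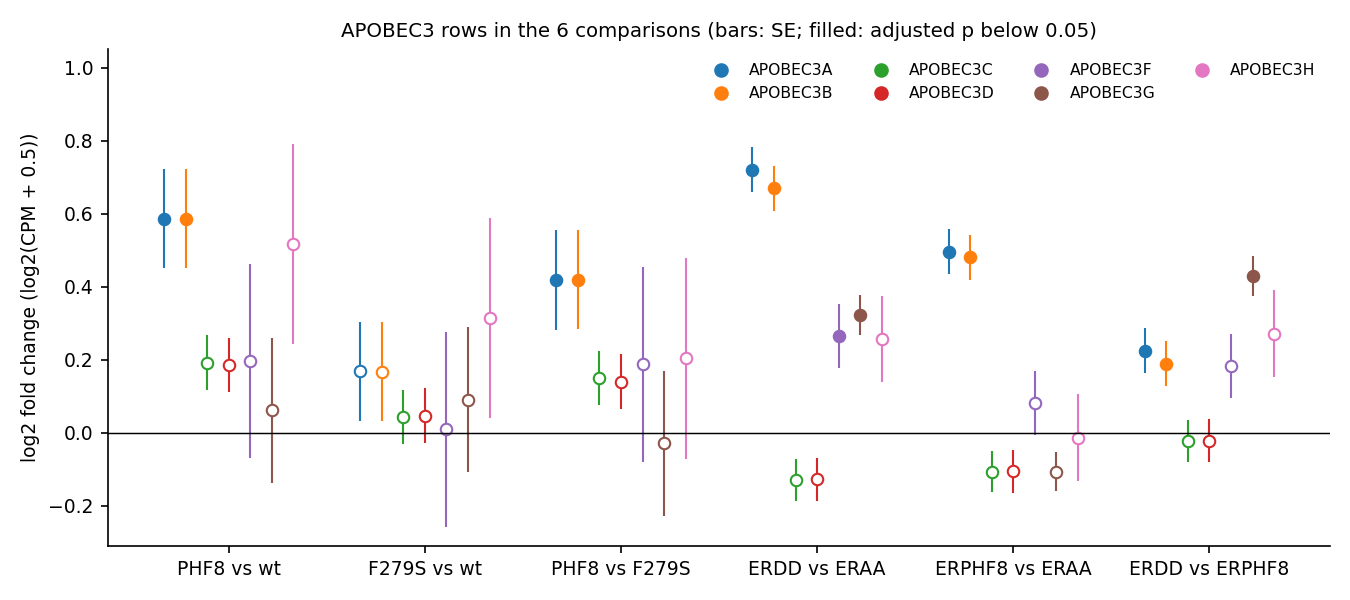
Log2 fold change with SE of the 7 APOBEC3 rows in the 6 comparisons, with filled points where the adjusted p was below 0.05. The APOBEC3A and APOBEC3B rows are called higher in 5 of the 6, and the APOBEC3C and APOBEC3D rows lie below 0 in the comparisons among the ER lines, though above it in ERDD vs ERPHF8 under median-of-ratios scaling.

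In the first experiment, the comparison of the PHF8 line with wt called 2 of 7 rows, those of APOBEC3A and APOBEC3B, both higher, where 21% of all genes were called changed, 12.7% higher and 8.28% lower. Same-numbered libraries deviated together, as did libraries of the same pair with different numbers, and with the number as a block the same count of rows was called, beside 41.4% of all genes. The median log2 change over the members was 0.20, beside 0.0051 over all genes tested. The groups of 2 members did not overlap, as was so for 26.2% of all genes.

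APOBEC3B stood at 12.1, 12.5, 16.6 and 17.6 CPM in wt libraries 1 to 4, at 16.1, 14.3, 16.7 and 18.6 in F279S and at 24.1, 24.6, 20.2 and 19.6 in the PHF8 line. All 4 PHF8 libraries lay above all wt and F279S libraries, and the gap was wider in libraries 1 and 2. The log2 change against wt was 0.59 ± 0.14 (SE, limma adjusted p = 0.00914). Libraries 1 and 2 taken alone gave 0.96 ± 0.09 (adjusted p = 6.06e-09), libraries 3 and 4 gave 0.22 ± 0.08 (adjusted p = 0.0665), and with each pair averaged the call was lost (adjusted p = 0.0941). Against F279S it was 0.42 ± 0.14 (adjusted p = 0.0480), 0.67 ± 0.09 in libraries 1 and 2 and 0.17 ± 0.08 (adjusted p = 0.137) in libraries 3 and 4. That call against F279S was lost without F279S library 1, 2 or 3 and without any 1 PHF8 library (adjusted p = 0.0529 to 0.129). It was also lost with no filter on low values (adjusted p = 0.0677), with median-of-ratios scaling (0.0501), with voom on recovered reads (0.0519) and with each pair averaged (0.194). PHF8 RNA stood at 5381 ± 320 CPM in F279S and 2020 ± 89.6 in the PHF8 line (SD, n = 4), so form and level of PHF8 cannot be told apart in this comparison. F279S differed from wt by 0.17 ± 0.14 (adjusted p = 0.983).

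The other members overlapped between the groups of the first experiment. APOBEC3C stood at 74.0, 73.4, 83.4 and 81.7 CPM in wt, 77.5, 77.1, 81.7 and 85.4 in F279S and 95.1, 96.9, 81.1 and 84.6 in the PHF8 line. Only PHF8 libraries 1 and 2 lay above every wt and F279S library. Its log2 change against wt was 0.19 ± 0.07 (limma adjusted p = 0.0910), with 0.38 ± 0.06 in the first pair of libraries and 0.0049 ± 0.05 in the second. APOBEC3F stood at 2.80, 2.99, 6.46 and 5.49 CPM in wt, 3.72, 2.74, 6.11 and 4.95 in F279S and 4.46, 5.34, 4.39 and 5.33 in the PHF8 line. The wt and F279S libraries split by pair and the PHF8 libraries did not. Its log2 change against wt was 0.20 ± 0.27 (adjusted p = 0.688), with 0.67 ± 0.16 and -0.27 ± 0.15 in the pairs.

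APOBEC3G stood at 18.6, 17.3, 29.5 and 30.4 CPM in wt, 20.1, 20.7, 30.8 and 29.1 in F279S and 21.7, 23.9, 25.4 and 26.2 in the PHF8 line. The PHF8 libraries lay between the low and the high pair of the other groups. The log2 change against wt was 0.06 ± 0.20 (limma adjusted p = 0.883), and that of APOBEC3G outside APOBEC3F was 0.02 ± 0.19. APOBEC3H stood at 0.401, 0.618, 1.11 and 0.866 CPM in wt, 0.606, 0.603, 1.63 and 1.53 in F279S and 1.37, 1.69, 0.855 and 1.18 in the PHF8 line, from 8 to 82 reads a library. PHF8 libraries 1 and 2 were high and wt and F279S libraries 1 and 2 low, with overlap between the groups. Its log2 change against wt was 0.52 ± 0.27 (adjusted p = 0.223). APOBEC3A outside APOBEC3B had 0 to 8 reads in each library, in sum 7 in wt, 11 in F279S and 12 in the PHF8 line, too few to enter the fit.

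The size of the PHF8 effect differed between the library pairs for all 7 rows. In PHF8 against wt the difference of the contrast (libraries 3 and 4 minus libraries 1 and 2) passed the test for 7 of 7 rows, all negative, beside 30.5% of all genes, and in PHF8 against F279S for 7 of 7, beside 21.8%. In F279S against wt it passed for 0 of 7, beside 0.899%. In libraries 1 and 2 alone, PHF8 against wt called 7 of 7 rows higher, beside 51.4% of all genes called. In libraries 3 and 4 alone it called 1 of 7, APOBEC3G, lower by -0.21 ± 0.06 (limma adjusted p = 0.0321), beside 42.1% of all genes. The pairs differed within the groups as well. APOBEC3F, APOBEC3G and APOBEC3H were 2.06, 1.67 and 1.94 times as high in libraries 3 and 4 of wt as in libraries 1 and 2, and 1.71, 1.47 and 2.62 times in F279S. In the PHF8 line the ratios were 0.992, 1.13 and 0.666.

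**Figure D4:**
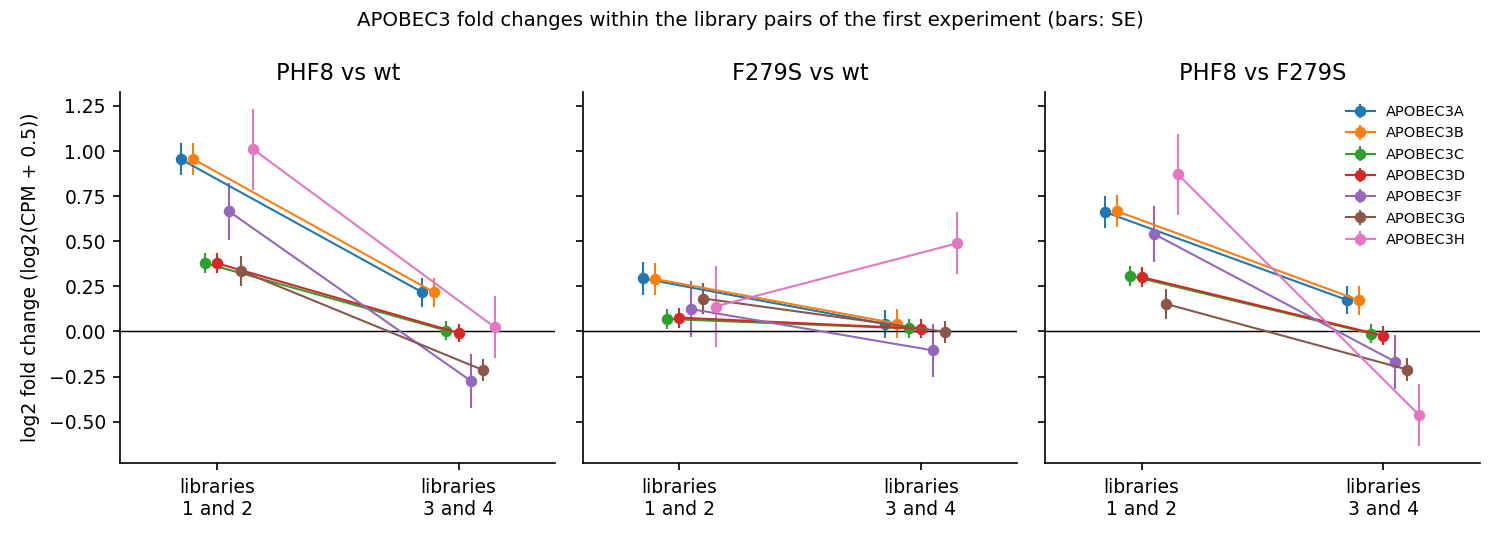
Log2 fold change with SE of the 7 APOBEC3 rows in libraries 1 and 2 and in libraries 3 and 4 of the first experiment. In both comparisons of the PHF8 line every row falls from the left pair to the right pair, for APOBEC3B from 0.96 to 0.22 against wt.

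F279S against wt called 0 of 7 rows (limma, 0 also at an unadjusted p below 0.05 and 0 by voom on recovered reads), where 0.0146% of all genes were called, or 2.18% with the replicate number as a block. Libraries 1 and 2 alone called 2 of 7, APOBEC3A and APOBEC3B (0.29 ± 0.09, adjusted p = 0.0299 for APOBEC3B), beside 14.2% of all genes, and libraries 3 and 4 called 0 of 7, beside 0.0877%. PHF8 against F279S called 2 of 7 rows, APOBEC3A and APOBEC3B, both higher, beside 20.1% of all genes, 12.2% higher and 7.92% lower, or 41.1% with the block. Libraries 1 and 2 alone called 6 of 7 rows higher, all but APOBEC3G, beside 53.8%, and libraries 3 and 4 alone called APOBEC3G lower (-0.21 ± 0.06, adjusted p = 0.0383), beside 35.2%. The groups of 2 members did not overlap, beside 26.6% of all genes, and of 0 members in F279S against wt, beside 4.18%. The summed monocytic markers were 3145 to 4088 CPM in wt, 2748 to 3485 in F279S and 2473 to 3004 in the PHF8 line, and their part was not tested.

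The members varied together to unequal degrees. Over the 18 libraries, with the mean of each experiment taken off, the log2 levels of APOBEC3B and APOBEC3H correlated at r = 0.708, APOBEC3F and APOBEC3H at 0.804, APOBEC3C and APOBEC3H at 0.705 and APOBEC3B and APOBEC3G outside APOBEC3F at 0.379. These rows do not overlap, but all share their libraries, depth and library pairs, and the values are descriptions. The genes most like APOBEC3B were PCDH7, a protocadherin (r = 0.95), GBP4, an interferon-induced GTPase (0.947), and NID1, a basement membrane protein (0.939), of 13502 genes searched. The APOBEC3A row gave GBP4 (0.951), PCDH7 (0.947) and DUSP27 (0.936). Most like APOBEC3C were CDT1, a licensing factor of DNA replication (0.887), the thromboxane receptor TBXA2R (0.883) and CASC10 (0.876), and the APOBEC3D row gave the same genes at 0.888, 0.871 and 0.851. APOBEC3F was most like TSGA13 (0.921), COG4 of the Golgi (0.918) and GNE of sialic acid synthesis (0.912). APOBEC3G was most like GSDMD, the pore-forming gasdermin (0.938), MYOM1 (0.938) and ANGPTL6 (0.930), and APOBEC3H most like MILR1, a mast cell immunoreceptor (0.876), the centromere protein CENPH (0.842) and TRAFD1 (0.842).

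The lists of other genes below are described by counts, which stand beside 34.8% of all genes called higher and 33.3% lower in ERDD against ERAA, 29.7% and 24.1% in ERPHF8 against ERAA, and 12.7% and 8.28% in PHF8 against wt. No enrichment of a list was tested.

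Other restriction factors of retroviruses had a larger median change than the APOBEC3 rows in ERDD against ERAA. Of 16 such genes, 11 were higher and 3 lower in ERDD against ERAA, with a median log2 change of 1.31. IFITM1, which blocks virus entry, went from 25.4 ± 2.03 to 213 ± 3.10 CPM (3.04 ± 0.06, limma adjusted p = 1.4e-08), TRIM22 changed by 3.21 ± 0.07 and the capsid sensor TRIM5 by 2.18 ± 0.05. Of the 16, 9 had a log2 change above 0.72, the largest of any APOBEC3 row. In PHF8 against wt 8 of 16 were higher and 1 lower (median 0.38). Those of smallest p were RSAD2, the antiviral enzyme viperin (1.13 ± 0.11), SLFN11 (0.51 ± 0.05) and MX2 (0.45 ± 0.06). In libraries 1 and 2 and in libraries 3 and 4 these stood at 1.08 and 1.19, 0.47 and 0.55, and 0.46 and 0.43. All 8 were above 0 in both pairs, and the change was smaller in libraries 3 and 4 for 6 of the 8. Among these were SLFN5 (1.57 and 1.08) and MARCH8 (1.13 and 0.66), named here after their values were seen. Both were called lower in ERDD against ERAA (-0.20 ± 0.08 and -0.61 ± 0.06) and in ERPHF8 against ERAA (-0.62 ± 0.08 and -0.27 ± 0.06). Of the 16 genes, 11 were higher and 3 lower in ERPHF8 against ERAA, and 0 and 0 in F279S against wt.

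Of 11 genes of the interferon receptor and ISGF3, the complex that carries the interferon signal to the nucleus, 5 were higher and 3 lower in ERDD against ERAA. USP18, which dampens the receptor, went from 5.24 ± 0.169 to 46.2 ± 0.328 CPM (3.02 ± 0.06), and the transcription factor IRF7 changed by 2.33 ± 0.05. In PHF8 against wt 0 of 11 were called in either direction. DREAM and B-MYB genes, cell cycle regulators that have been linked to APOBEC3B transcription, had 9 of 12 higher and 2 lower in ERDD against ERAA, where 68.1% of all genes were called changed, and 9 higher and 1 lower in ERPHF8 against ERAA, where 53.8% were. MYBL2, which encodes B-MYB, went from 187 ± 12 in ERAA to 318 ± 8.28 in ERPHF8 and 439 ± 8.44 CPM in ERDD. In PHF8 against wt the same list had 0 of 12 higher and 1 lower, LIN9 (-0.24 ± 0.06, and -0.32 and -0.16 in the library pairs). Genes of the NF-kB subunits and kinases went both ways in ERDD against ERAA, 5 of 11 higher and 4 lower, with NFKB2 at -1.21 ± 0.06, RELB at -0.79 ± 0.08 and the kinase gene CHUK at 0.44 ± 0.05, and in PHF8 against wt 0 were higher and 2 lower.

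Of 13 genes listed for uracil excision and repair, 7 were higher and 1 lower in ERDD against ERAA (median 0.35), beside 68.1% of all genes called changed. In ERPHF8 against ERAA 7 were higher and 2 lower (median 0.25), beside 53.8%. The list also holds repair genes that do not act on uracil itself. UNG, the uracil glycosylase, went from 41.2 ± 0.607 in ERAA to 70.6 ± 1.23 in ERPHF8 and 76.5 ± 2.25 CPM in ERDD, and DUT, which keeps dUTP out of DNA, changed by 0.66 ± 0.04 in ERDD against ERAA. In PHF8 against wt 1 of 13 was higher, the translesion polymerase POLH (0.21 ± 0.06), and 1 lower, MBD4 (-0.17 ± 0.05). In the library pairs they stood at 0.23 and 0.19, and at -0.22 and -0.12.

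Of 13 other deaminases 9 were high enough to test, and 3 were higher and 4 lower in ERDD against ERAA. ADAR, which edits adenosine in RNA and has an interferon-induced form, changed by 1.17 ± 0.05, and APOBEC2 by -1.16 ± 0.16 at a level of 0.364 to 1.43 CPM. Cytidine deaminase CDA, an enzyme of nucleoside salvage, was lower in PHF8 than in wt (7.51 ± 2.90 to 3.16 ± 0.286 CPM, -1.06 ± 0.23, and -0.64 and -1.48 in the library pairs). Among the 10 nearest genes of chromosome 22 outside the cluster, 9 were tested and 0 were higher in ERDD against ERAA, while 5 were lower, among them CBX7, a Polycomb protein (-1.03 ± 0.07), SYNGR1 (-0.81 ± 0.07) and SUN2 (-0.43 ± 0.04). The same list had 0 higher and 2 lower in PHF8 against wt, CBX6 (-0.44 ± 0.08, with -0.54 and -0.35 in the pairs) and NPTXR (-0.85 ± 0.24, with -1.11 and -0.60). APOBEC3B was called higher in both of these comparisons and 0 of the 9 neighbours were. Any part of the chromosome region in these changes was not tested.

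**Figure D5:**
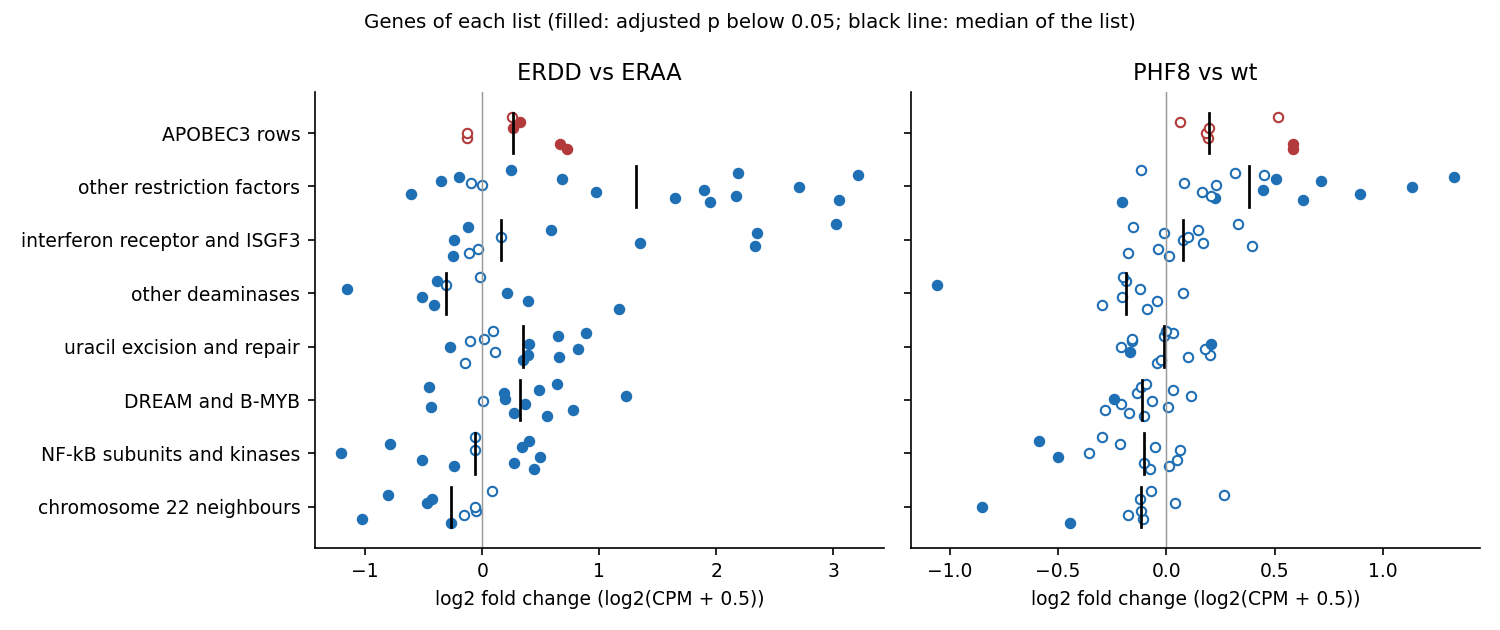
Log2 fold changes of the APOBEC3 rows (red) and of the genes of each list (blue) in ERDD against ERAA and in PHF8 against wt, with filled points where the adjusted p was below 0.05 and a black line at the median. In ERDD against ERAA the median of the other restriction factors is 1.31 and that of the APOBEC3 rows 0.26.

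The promoter of APOBEC3H was the only one of a member in the RefSeq table used (chromosome 22, 39096994 to 39097293, GRCh38.p14). It held none of the motifs searched on both strands, the interferon-stimulated response element (ISRE), the gamma-activated site TTCNNNGAA, the NF-kB site and the cell cycle element TTTGAA. Of 35116 promoters of the same length, 3.57%, 7.66%, 1.4% and 15.2% held them. No match says only that these letters are not in this window.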

How the data were processed

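The authors deposited, for each of 18 libraries, RPKM values per gene over hg38 spans. The submitters' processing notes name STAR 2.7.0c, SAMtools 1.9 and DESeq2, but no counting tool or strand setting. RPKM times the span in kilobases gave CPM, and 100% of values came out as whole reads within 0.001 reads, so reads per gene and library totals were recovered. Of the row names known to GENCODE v29, 91.4% had the same start and end there.

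limma 3.58.1 (R 4.3.3, data.table version 1.17.8) modelled log2(CPM + 0.5) by group alone, its prior variance following intensity, over the 12 libraries of the first experiment (genes with at least 1 CPM in 4 libraries) and the 6 of the second (in 2). Fold changes are on this scale, which understates changes of low genes. The fit was tested on simulated counts of independent libraries. These had no library pairs like those of the first experiment, so that test does not cover them. Same-numbered libraries of the first experiment deviated together (r = 0.484 to 0.908 in 12 pairs). Different numbers gave r = -0.860 to 0.819, and a library correlated best with its own number in 15 of 24 checks. Whether the numbers are a pairing is therefore not settled. The main fit took no account of them, and fits with the number as a block are given beside it. Members, lists and alternatives were chosen with earlier results of these data known. Named genes are all members, at most 3 called genes of smallest p per list and comparison, and the 3 genes most like each member; 1 gene that this rule selects is not reported here. Python 3.11.15, pandas 2.3.3, scipy 1.17.1 and matplotlib 3.10.9 were used. Intervals cover counting error only.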

Additional observations from a re-analysis of the deposited data

Results flagged for a closer look

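The PHF8 contrast of every APOBEC3 row differed between libraries 3 and 4 and libraries 1 and 2 of the first experiment, by the interaction term in limma. The log2 difference of PHF8 against wt (libraries 3 and 4 minus libraries 1 and 2) was -0.74 for APOBEC3A, -0.74 for APOBEC3B, -0.37 for APOBEC3C, -0.39 for APOBEC3D, -0.94 for APOBEC3F, -0.55 for APOBEC3G and -0.99 for APOBEC3H. For PHF8 against F279S it was -0.49 for APOBEC3A, -0.49 for APOBEC3B, -0.32 for APOBEC3C, -0.33 for APOBEC3D, -0.71 for APOBEC3F, -0.36 for APOBEC3G and -1.34 for APOBEC3H. The rows of APOBEC3A and APOBEC3B share reads, as do those of APOBEC3C and APOBEC3D and those of APOBEC3F and APOBEC3G. Both comparisons also share the PHF8 libraries. No label says how the pairs differ.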

How the results depend on the processing

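Of 142 alternative counts of members, 114 were within 1.5 times the count reported. PHF8 against F279S went from 2 rows to 1 with a pseudocount of 0.1, to 0 with no filter, with median-of-ratios scaling and with voom on recovered reads, to 1 with overlapping reads taken off, to 6 in libraries 1 and 2 alone, to 1 in libraries 3 and 4 alone, to 0 with each pair averaged, and to 0 to 2 when 1 library was left out. PHF8 against wt went from 2 to 1 with overlapping reads taken off, because 5 rows were then tested, to 7 and 1 in the pairs alone, to 4 with the pair as a factor and to 0 with each pair averaged. F279S against wt had 2 in libraries 1 and 2. Leaving out 1 library lowered the count in ERDD against ERPHF8 every time. In ERPHF8 against ERAA it raised the count without ERAA library 1 and left it unchanged otherwise. For the difference between pairs in PHF8 against F279S it gave 4 to 7 rows. In all of these fits the lone library of an arm was assumed to vary like the others. The cause of these shifts was not tested.

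With the replicate number as a block, 2, 0 and 2 rows were called in PHF8 against wt, F279S against wt and PHF8 against F279S, while the calls over all genes went from 2874, 2 and 2750 to 5670, 298 and 5620. In the second experiment same-numbered libraries had r = -0.336 to 0.104 and different numbers -0.104 to 0.336. With 2 libraries per group these are mirror images, so they cannot show whether the numbers are a pairing. The block gave 4, 2 and 3 rows. Crossing the numbers of ERPHF8 and ERAA, an alternative chosen after seeing the data as were those of the difference between pairs, called 2 rows and 8116 genes, beside 7436.

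Directions reversed in 28 of 706 alternative fold changes, all of rows that were not called in the comparison as reported. In libraries 3 and 4 alone, PHF8 against wt gave -0.0082 for APOBEC3D, -0.27 for APOBEC3F and -0.21 for APOBEC3G; F279S against wt gave -0.10 for APOBEC3F and -0.0019 for APOBEC3G; PHF8 against F279S gave -0.012 for APOBEC3C, -0.024 for APOBEC3D, -0.17 for APOBEC3F and -0.47 for APOBEC3H. In libraries 1 and 2 alone APOBEC3G was at 0.15 in PHF8 against F279S. Median-of-ratios scaling gave 0.0053 for APOBEC3C and 0.0064 for APOBEC3D in ERDD against ERPHF8. Without 1 library, PHF8 against wt ranged from -0.076 to 0.19 for APOBEC3G, F279S against wt from -0.16 to 0.20 for APOBEC3F and -0.047 to 0.22 for APOBEC3G, PHF8 against F279S from -0.13 to 0.075 for APOBEC3G, ERPHF8 against ERAA from -0.056 to 0.029 for APOBEC3H, and ERDD against ERPHF8 from -0.070 to 0.023 for APOBEC3C and -0.075 to 0.030 for APOBEC3D.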
